A study of Rattus norvegicus with 9 samples.

Results

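The 33 genes described here make, carry, esterify or export cholesterol, or control these processes, in rat adipose-derived stromal cells (ADSCs), the fibroblast-like cells that grow out of digested fat. They were taken by gene symbol from a table of 21923 genes, and the symbols of all 33 were found. Of them, 20 encode enzymes of the synthesis pathway, 5 are liver X receptors or genes that these receptors induce, and the other 8 control, carry, hydroxylate or esterify sterols. All 33 passed the filter on low counts, among 12364 genes tested.

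Messenger RNA was sequenced in 9 libraries, 3 in each of 3 groups. The Vivo group was ADSCs of the fourth passage that had been placed by injection into the fat of nude mice and recovered 7 days later. The Vitro group was ADSCs of the same starting passage kept and passaged in the incubator until the Vivo cells were taken. The Con group was the starting cells themselves, at passage 4. All groups came from subcutaneous inguinal fat of GFP-transgenic rats and were expanded in serum-containing DMEM/F12, serum being a source of lipoproteins. The hosts were athymic mice, which lack T cells and keep other immune cells. The labels give no strain, sex or age of the rats, do not say how the injected cells were separated from host tissue, and do not tie libraries to separate animals or cultures. The p-values therefore measure the spread between libraries, which may be technical.

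Cholesterol is built from acetyl-CoA through mevalonate and farnesyl diphosphate to squalene, then through lanosterol by a set of demethylations, reductions and isomerisations. SREBP-2, escorted by Scap and held back by the Insig proteins when membranes hold enough sterol, switches on most genes of the pathway. The liver X receptors (LXRs) bind oxysterols and switch on the exporters Abca1 and Abcg1 and the ubiquitin ligase Mylip, so that synthesis and export are usually regulated in opposite directions. 25-Hydroxycholesterol, made by Ch25h, blocks SREBP processing and is also an LXR ligand.

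Promoter windows from RefSeq (assembly GRCr8, 250 bases before to 50 after each gene's start) were matched for 27 of the 33 genes. The windows of 6 genes whose counts passed the test in at least 1 comparison are shown, since they carry the main differences. Nr1h3 also passed, and its matched window, which held none of the motifs searched below, is not shown. Capitals mark CCAAT boxes on either strand, the sites of the factor NF-Y that works beside SREBP, and stretches within 1 mismatch of the sterol regulatory element TCACNCCAC. Each line gives the strand that holds the gene, 5′ to 3′.
Sc5d, chr8:51538228-51538527, minus strand: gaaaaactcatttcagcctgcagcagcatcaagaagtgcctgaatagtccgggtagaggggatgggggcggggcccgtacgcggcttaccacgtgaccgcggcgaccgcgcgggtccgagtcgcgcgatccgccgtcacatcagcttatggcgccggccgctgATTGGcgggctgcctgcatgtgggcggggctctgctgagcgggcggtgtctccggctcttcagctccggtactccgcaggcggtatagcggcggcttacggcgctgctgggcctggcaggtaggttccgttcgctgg
Lss, chr20:12118181-12118480, minus strand: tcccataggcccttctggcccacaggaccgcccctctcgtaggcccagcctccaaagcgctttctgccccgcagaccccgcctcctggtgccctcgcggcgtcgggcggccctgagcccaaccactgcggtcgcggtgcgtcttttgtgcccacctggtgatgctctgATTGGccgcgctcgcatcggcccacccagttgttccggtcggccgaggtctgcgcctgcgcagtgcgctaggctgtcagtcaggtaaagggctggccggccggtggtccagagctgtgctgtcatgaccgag
Cyp51, chr4:30991443-30991742, plus strand: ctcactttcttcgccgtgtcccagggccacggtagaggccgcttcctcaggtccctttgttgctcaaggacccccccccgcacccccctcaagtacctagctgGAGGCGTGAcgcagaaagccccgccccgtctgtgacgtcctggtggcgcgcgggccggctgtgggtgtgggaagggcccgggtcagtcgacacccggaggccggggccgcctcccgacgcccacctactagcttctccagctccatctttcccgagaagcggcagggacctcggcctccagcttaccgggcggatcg
Hsd17b7, chr13:84722705-84723004, minus strand: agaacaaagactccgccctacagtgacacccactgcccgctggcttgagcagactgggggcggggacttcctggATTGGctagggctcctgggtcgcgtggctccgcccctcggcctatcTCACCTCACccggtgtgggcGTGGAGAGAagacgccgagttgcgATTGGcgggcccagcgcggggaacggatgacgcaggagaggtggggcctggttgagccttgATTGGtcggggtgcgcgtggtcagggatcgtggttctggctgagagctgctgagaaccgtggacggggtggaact
Ch25h, chr1:241429317-241429616, minus strand: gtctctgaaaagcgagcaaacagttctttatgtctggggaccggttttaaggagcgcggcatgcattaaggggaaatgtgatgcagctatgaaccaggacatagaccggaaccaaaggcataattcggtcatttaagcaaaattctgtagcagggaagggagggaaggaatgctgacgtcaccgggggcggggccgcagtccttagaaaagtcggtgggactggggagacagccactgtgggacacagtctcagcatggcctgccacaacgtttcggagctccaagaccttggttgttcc
Abca1, chr5:72596424-72596723, minus strand: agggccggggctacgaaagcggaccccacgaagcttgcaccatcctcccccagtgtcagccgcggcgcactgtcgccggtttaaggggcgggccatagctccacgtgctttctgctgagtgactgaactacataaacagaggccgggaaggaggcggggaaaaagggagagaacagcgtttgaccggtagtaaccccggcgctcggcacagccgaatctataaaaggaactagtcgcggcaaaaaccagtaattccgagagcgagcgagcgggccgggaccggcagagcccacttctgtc
The Sc5d and Lss windows held 1 CCAAT box each, the Hsd17b7 window held 3, and the other 3 windows held none. The Hsd17b7 window held 2 stretches within 1 mismatch of the sterol element and the Cyp51 window held 1. The windows of Ch25h and Abca1 held neither motif. A CCAAT box was present in 14 of the 17 matched synthesis windows (82.4%) and 1 of 4 LXR and efflux windows (25.0%), against 37.5% of all 33469 RefSeq windows of this length. The Sp1 box GGGCGG, read on both strands, was also present in 14 of the 17 synthesis windows (82.4%) and in 2 of the 4 LXR and efflux windows (50%), against 33.1% of all windows. The E-box CACGTG was present in 1 of the 17 synthesis windows (5.88%), against 6.42% of all windows. No window of the 27 held the exact element TCACNCCAC, which 1.12% of all windows held. The search with 1 mismatch was added after that result and matched 7 of the 17 synthesis windows (41.2%), against 23.7% of all windows. An AGGTCA repeat spaced by 4 bases, the arrangement that LXRs bind, was searched with up to 2 mismatches and was in none of the 27 windows, against 2.93% of all windows. This search was also added after the exact sterol element matched none of the 27. It misses repeats with more mismatches or outside the windows, so it does not show that Abca1 or the other genes lack such a site. A match describes letters in these windows, and the occupancy of the sites was not measured.

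Total counts were 17484607 to 18355242 per library, so that 3 counts correspond to 0.163 to 0.172 CPM (counts per 1000000 counts of the library). Levels below are CPM scaled by edgeR's TMM factors, which allow a gene to be compared between libraries and not between genes. Differences are log2 fold changes with their standard error, and a gene is said to rise or fall only where the quasi-likelihood test of edgeR, adjusted by Benjamini-Hochberg over all 12364 genes, gave an adjusted p below 0.05. Vivo replicate 3 stood apart: its log2 CPM correlated with the other Vivo libraries at 0.949 and 0.951 across genes, whereas all other pairs within a group reached 0.970 to 0.986. Its mitochondrial transcripts took 3.48% of counts, against 2.07% to 2.54% elsewhere. Across the tested genes, its difference from the other Vivo libraries fell with gene length (Spearman's rho -0.539 over genes, which are not independent). Vitro replicate 1 stood apart among the synthesis genes, with the highest of the 9 values in 14 of 20.

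In re-isolated cells most sterol synthesis genes had lower values than in the starting culture. Of the 33 genes, 4 fell and none rose in Vivo against Con, where 9.73% of all tested genes were called, 5.17% higher and 4.56% lower. Among the 20 synthesis genes 3 fell (15%), namely Sc5d, Lss and Cyp51, and the fourth gene that fell was Ch25h. The fold change was below 0 in 17 of the 20 synthesis genes (85%), against 48.9% of all tested genes, and their median was -0.55, against 0.013 over all genes. In 13 of the 20 (65%) every Vivo library lay below every Con library, against 16.1% of all tested genes. At an unadjusted p under 0.05, 12 of the 20 were lower, against 12.5% of all tested genes. None of the 5 LXR and efflux genes passed, with all 5 above 0, against 51.1% of all tested genes, and a median of 0.40. In bulk RNA, fewer cells of a type and less RNA per cell cannot be told apart. The number called rested on single libraries: 2 of the 33 genes were called without Con replicate 1, without Con replicate 3 or without Vivo replicate 1. These fits called 3.68%, 2.72% and 5.32% of all genes they tested, in turn. The number was 11 without Vitro replicate 1 and 12 without Vivo replicate 3, 9 and 8 of them synthesis genes that fell. There 10.4% and 13.6% of all genes tested were called.

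Against the culture of the same age, 6 of the 33 genes passed in Vivo, 2 higher and 4 lower, where 10.9% of all tested genes were called, 5.38% higher and 5.52% lower. Synthesis genes and LXR genes lay on opposite sides. Of the 20 synthesis genes, 3 fell (15%), namely Sc5d, Lss and Hsd17b7, and none rose, while 18 were below 0 (90%), with a median of -0.39, against 48.4% of all tested genes below 0 and a median of 0.017 over them. Of the 5 LXR and efflux genes, Nr1h3 and Abca1 rose (40%) and all 5 were above 0, against 51.6% of all tested genes, with a median of 0.90. Every Vivo library lay below every Vitro library in 9 of the 20 synthesis genes (45%), against 17.5% of all tested genes, and above it in 4 of the 5 efflux genes (80%), against 17.7%. Without Vitro replicate 1, 3 of the 33 were called, Sc5d, Nr1h3 and Ch25h, where 7.53% of all genes tested were called. The synthesis median was then -0.23. The Vivo comparisons share the Vivo libraries, so that their results are not independent of each other.

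After continued culture none of the 33 genes had passed the threshold. In Vitro against Con, edgeR called 0 of 33, where 0.0324% of all tested genes were called, 0.00809% higher and 0.0243% lower. Srebf1 and Insig1 were lower at an unadjusted p under 0.05, as 5.28% of all tested genes were, and no member was higher at that level, against 6.08%. For the 33 genes, DESeq2 called 1 gene (Srebf1), against 2.22% of all genes it tested, and a fit with sample quality weights called 9, against 21.8% of all genes. The synthesis median was -0.11 with 16 of 20 genes below 0, and the LXR and efflux median was -0.44 with 4 of 5 below 0, where 50.1% of all tested genes were below and 49.9% above 0. The synthesis median was -0.35 without Vitro replicate 1 and 0.005 without Vitro replicate 2, so its size rested on single Vitro libraries.

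**Figure D1:**
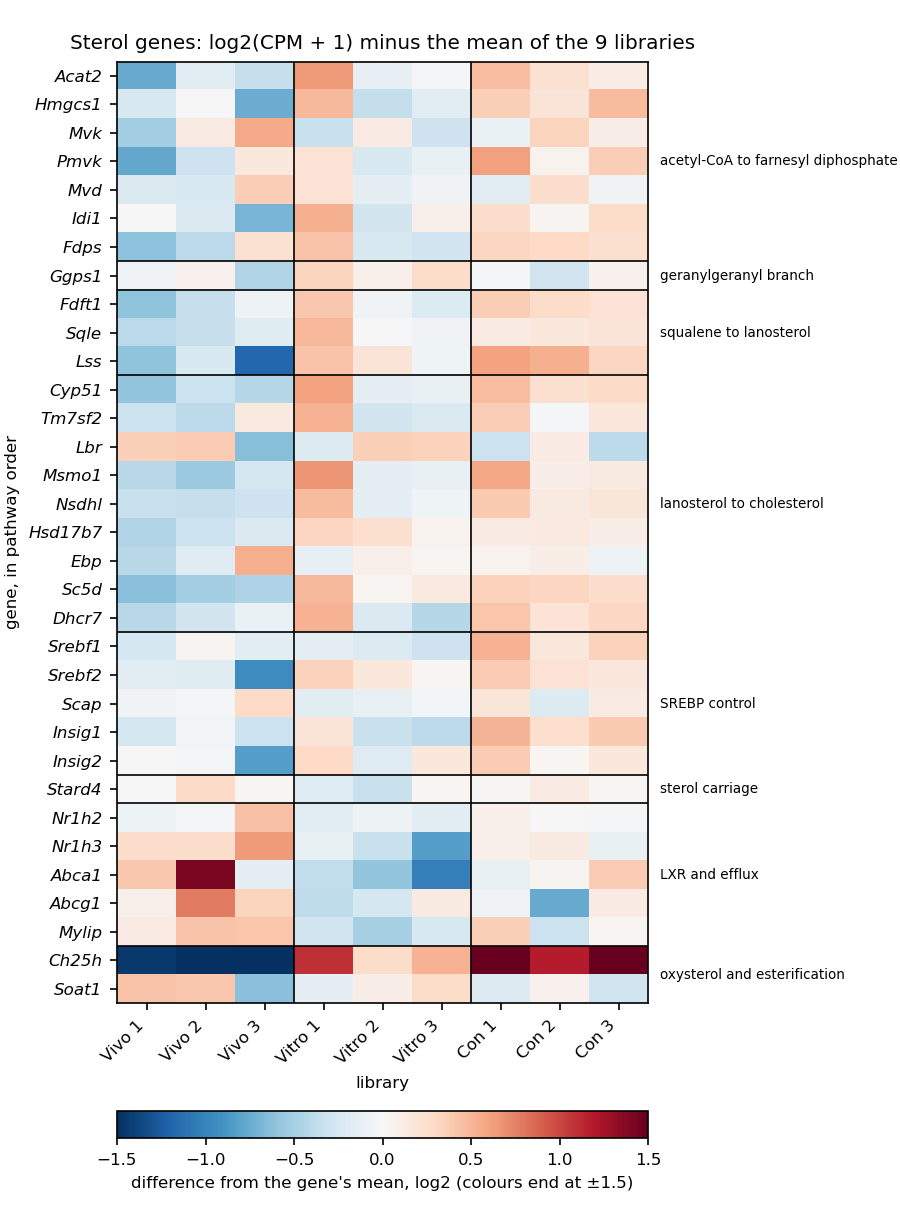
Level of each of the 33 genes in each library, as log2(CPM + 1) minus the mean of the 9 libraries, with genes in pathway order and libraries grouped as Vivo, Vitro and Con. Most synthesis rows are below their mean in the 3 Vivo libraries and above it in Con and in Vitro replicate 1, and most LXR and efflux rows are higher in Vivo than in Vitro.

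**Figure D2:**
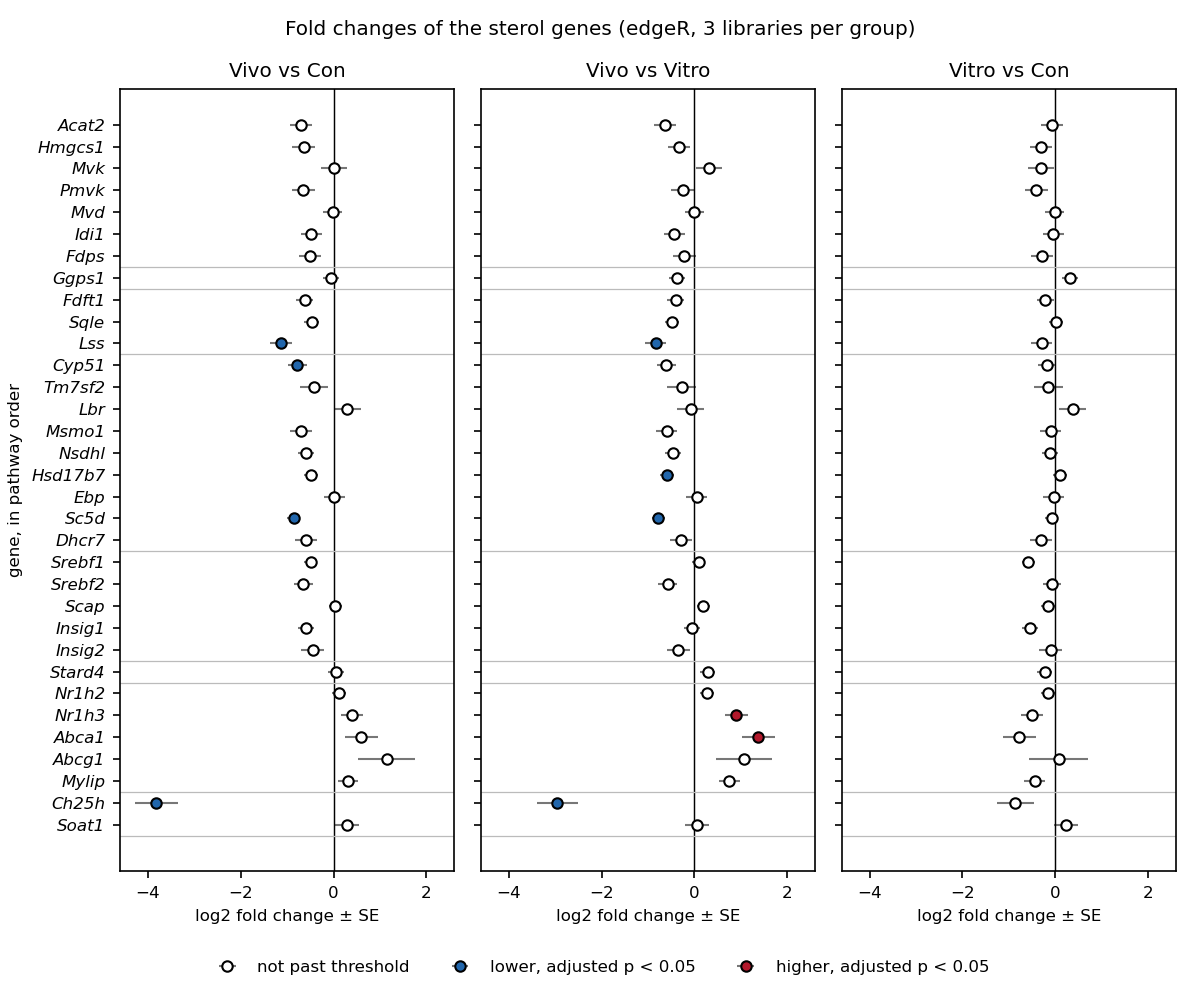
Log2 fold change with its standard error for each gene in Vivo vs Con, Vivo vs Vitro and Vitro vs Con (3 libraries per group), with filled symbols for genes past the adjusted threshold. In the Vivo comparisons 17 and 18 of the 20 synthesis genes lie left of 0, and Ch25h lies farthest left.

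Summed over the 20 synthesis genes, transcripts took 1064, 1194 and 1229 CPM in Vivo, 2013, 1314 and 1336 CPM in Vitro, and 1860, 1680 and 1722 CPM in Con. The 3 Vivo sums lie below the other 6, and Vitro replicates 2 and 3 lie nearer to Vivo than to Con. The median synthesis gene, centred on its mean over the libraries on the log2 scale, was at -0.42, -0.30 and -0.24 in Vivo, 0.45, -0.13 and -0.061 in Vitro, and 0.35, 0.18 and 0.19 in Con. The median LXR and efflux gene was at 0.13, 0.43 and 0.41 in Vivo, -0.29, -0.33 and -0.24 in Vitro, and 0.076, 0.011 and 0.031 in Con. The LXR and efflux median was lowest in the 3 Vitro libraries, whereas the synthesis median of Vitro replicate 1 lay apart from that of the other 2. Over all 6 cultured libraries, every Vivo library was lowest in 8 of the 20 synthesis genes (40%), namely Acat2, Sqle, Lss, Cyp51, Msmo1, Nsdhl, Hsd17b7 and Sc5d, and also in Srebf2 and Ch25h. This held for 10.2% of all tested genes. Nr1h3 was the only member above all 6, as 10.9% of all tested genes were.

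The early enzymes, from acetyl-CoA to farnesyl diphosphate, did not pass in the edgeR fit to all libraries in any comparison. Their 7 fold changes had a median of -0.51 in Vivo against Con and -0.25 in Vivo against Vitro. Acat2, the cytosolic thiolase that joins acetyl units, was at 19.7, 30.1 and 26.6 CPM in Vivo, 53.7, 31.3 and 33.4 CPM in Vitro and 47.3, 40.2 and 36.8 CPM in Con (a log2 fold change of -0.70 ± 0.23, adjusted p = 0.0876 against Con). Every Vivo value lay below every cultured value. Hmgcs1, the synthase that feeds the rate-limiting step, was at 189.7, 222 and 133 CPM in Vivo, 314, 174 and 199 CPM in Vitro and 286, 256 and 310.5 CPM in Con, so that Vivo lay below Con and overlapped Vitro (a log2 fold change of -0.65 ± 0.24, adjusted p = 0.125 against Con). Pmvk, which phosphorylates phosphomevalonate, was at 14.1, 19.7 and 27.6 CPM in Vivo, 28.9, 21.01 and 22.9 CPM in Vitro and 38.5, 25.7 and 32.3 CPM in Con, with overlap throughout.

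Fdps, which makes farnesyl diphosphate, was at 163, 190.4 and 294 CPM in Vivo, 336, 213 and 203 CPM in Vitro and 314, 309 and 296 CPM in Con. Vivo replicate 3 lay well above the other Vivo libraries and just below the Con values. The mevalonate kinase gene Mvk was likewise at 9.46, 15.3 and 21.1 CPM in Vivo, against 10.8, 15.2 and 11.0 CPM in Vitro and 12.9, 17.8 and 14.9 CPM in Con, and the decarboxylase gene Mvd averaged 24.1 ± 6.29 CPM in Vivo, 24.3 ± 3.30 in Vitro and 24.5 ± 3.97 in Con (SD, n = 3 each). Both had their highest Vivo value in replicate 3. Idi1, the isomerase that makes dimethylallyl diphosphate, had its lowest Vivo value in replicate 3, at 59.4, 50.7 and 36.3 CPM in Vivo, against 86.5, 48.6 and 62.6 CPM in Vitro and 71.4, 60.9 and 71.8 CPM in Con. Ggps1, which diverts farnesyl diphosphate to geranylgeranyl diphosphate for prenylation and not to sterols, averaged 21.6 ± 3.94 CPM in Vivo, 28.1 ± 2.68 in Vitro and 22.4 ± 2.94 in Con (SD, n = 3 each). It was the single synthesis gene in which all Vitro libraries lay above all Con libraries, and it passed no test.

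The 3 enzymes from farnesyl diphosphate to lanosterol had medians of -0.62 in Vivo against Con and -0.48 in Vivo against Vitro. Lss, the cyclase that folds squalene epoxide into lanosterol, was at 30.4, 39.8 and 20.1 CPM in Vivo, 63.02, 53.6 and 44.7 CPM in Vitro and 71.3, 68.4 and 58.6 CPM in Con. No Vivo value reached a cultured value, and replicate 3 was the lowest. Lss fell by 1.13 ± 0.23 on the log2 scale against Con (adjusted p = 0.0185) and by 0.84 ± 0.23 against Vitro (adjusted p = 0.0472). The call against Con needed Con replicate 1 (adjusted p = 0.0662 without it), Con replicate 3 (0.0506) and Vivo replicate 1 (0.051). The call against Vitro was lost in 8 of 16 alternatives, among them 7 of the 9 that left out a library (adjusted p up to 0.14).

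Squalene synthase (Fdft1) was at 63.9, 76.7 and 92.8 CPM in Vivo, 129.5, 93.9 and 84.9 CPM in Vitro and 127, 118 and 114 CPM in Con. Vivo lay below Con in every library, with a log2 fold change of -0.62 ± 0.19, adjusted p = 0.0639, and overlapped Vitro. Sqle, the squalene epoxidase and the second slow step of the pathway, was at 58.05, 60.2 and 67.7 CPM in Vivo, 109, 77.1 and 74.2 CPM in Vitro and 83.9, 85.8 and 88.1 CPM in Con. Its Vivo values lay below all 6 cultured values by a small margin, with a log2 fold change of -0.47 ± 0.16, adjusted p = 0.0876 against Con and a log2 fold change of -0.48 ± 0.16, adjusted p = 0.0801 against Vitro.

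Of the 9 enzymes between lanosterol and cholesterol, 2 fell in Vivo against Con, where 4.56% of all tested genes fell, and 2 against Vitro, where 5.52% did. Their medians were -0.59 against Con and -0.47 against Vitro. Sc5d, the C5 desaturase near the end of the pathway, was at 46.8, 50.9 and 52.3 CPM in Vivo, 102, 74.4 and 80.3 CPM in Vitro and 92.6, 91.3 and 87.5 CPM in Con. The Vivo values lay close together and below all cultured values. Sc5d fell by 0.86 ± 0.14 on the log2 scale against Con (adjusted p = 0.00618) and by 0.78 ± 0.14 against Vitro (adjusted p = 0.00717). Together with Ch25h it was called in both Vivo comparisons under all 16 alternatives, with an adjusted p up to 0.0287 against Con and 0.0381 against Vitro.

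Cyp51, the lanosterol demethylase, was at 141, 170.5 and 158 CPM in Vivo, 324, 192 and 198 CPM in Vitro and 294, 252 and 259.6 CPM in Con. It fell by 0.78 ± 0.20 on the log2 scale against Con (adjusted p = 0.0392), and against Vitro the difference was a log2 fold change of -0.60 ± 0.20, adjusted p = 0.0843. The Vitro values spread widely, with replicate 1 above all Con values. The call against Con was lost when any of the 3 Con libraries, Vitro replicate 3 or Vivo replicate 1 or 2 was left out (adjusted p 0.0502 to 0.131). Hsd17b7, the 3-keto reductase of the demethylation complex, was at 8.64, 9.48 and 10.3 CPM in Vivo, 15.5, 14.5 and 12.7 CPM in Vitro and 13.4, 13.5 and 13.1 CPM in Con. It fell by 0.58 ± 0.15 on the log2 scale against Vitro (adjusted p = 0.0377), and against Con the difference was a log2 fold change of -0.49 ± 0.15, adjusted p = 0.0717. The Vivo values lay below all 6 cultured values, and the call against Vitro was lost in 12 of 16 alternatives (adjusted p up to 0.12).

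The other members of the demethylation complex, Msmo1 and Nsdhl, were also lowest in Vivo but did not pass in the edgeR fit to all libraries. Against Con, DESeq2, sample quality weights and the fit without Vitro replicate 1 called both, and gene length offsets called Msmo1. These fits called 15.2%, 28%, 10.4% and 13.1% of all genes they tested, in turn. Msmo1, the C4 methyl oxidase, was at 109.5, 99.05 and 121 CPM in Vivo, 231, 133 and 135 CPM in Vitro and 218, 156 and 160.3 CPM in Con (a log2 fold change of -0.70 ± 0.23, adjusted p = 0.0831 against Con). Nsdhl, the C4 decarboxylase, was at 32.3, 31.9 and 32.7 CPM in Vivo, 57.4, 37.3 and 39.2 CPM in Vitro and 54.1, 44.8 and 46.6 CPM in Con (a log2 fold change of -0.59 ± 0.17, adjusted p = 0.0619 against Con). In both genes all Vivo values lay below all cultured values. Dhcr7, the last enzyme of the route through 7-dehydrocholesterol, was at 20.3, 22.4 and 25.4 CPM in Vivo, 39.9, 23.4 and 20.1 CPM in Vitro and 36.8, 31.7 and 34.2 CPM in Con (a log2 fold change of -0.59 ± 0.23, adjusted p = 0.14 against Con), and Vivo overlapped Vitro.

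The remaining members of this stretch did not follow the group order. Ebp, the sterol isomerase, was at 21.03, 24.9 and 42.04 CPM in Vivo, 25.9, 29.9 and 29.01 CPM in Vitro and 29.6, 30.4 and 26.9 CPM in Con, with Vivo replicate 3 highest of all. Lbr and Tm7sf2 encode alternative C14 reductases, and Lbr also anchors heterochromatin at the nuclear envelope. Lbr was at 30.1, 30.6 and 14.5 CPM in Vivo, 19.98, 30.03 and 29.6 CPM in Vitro and 18.4, 25.4 and 17.5 CPM in Con, with Vivo replicate 3 lowest of all. Tm7sf2 was low, at 3.86, 3.65 and 5.77 CPM in Vivo, 7.75, 4.05 and 4.25 CPM in Vitro and 6.88, 5.04 and 5.85 CPM in Con, and the groups overlapped.

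**Figure D3:**
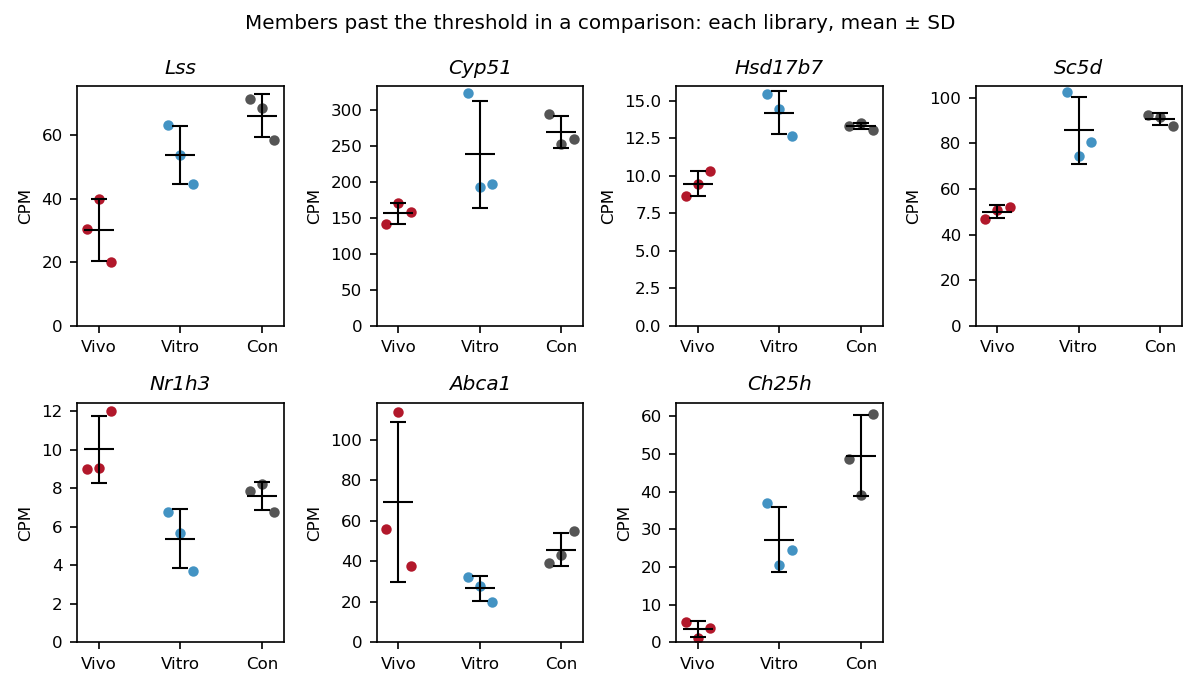
CPM of each library (points) with the group mean and SD (bars), in Vivo, Vitro and Con, for the genes past the threshold in at least 1 comparison. Sc5d, Lss, Cyp51, Hsd17b7 and Ch25h lie lower in all 3 Vivo libraries than in all cultured libraries, and Nr1h3 lies higher.

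None of the 5 SREBP control genes passed in the edgeR fit to all libraries in any comparison, and their fold changes had medians of -0.49 in Vivo against Con and -0.054 in Vivo against Vitro. Srebf2, which encodes the main activator of sterol synthesis genes, was at 102, 100.6 and 59.2 CPM in Vivo, 146, 128 and 116 CPM in Vitro and 149, 133 and 128 CPM in Con. All Vivo values lay below all cultured values, by little in replicates 1 and 2 and by more in replicate 3 (a log2 fold change of -0.65 ± 0.20, adjusted p = 0.0704 against Con). Srebf2 was called against Con in 5 of 16 alternatives: DESeq2, the replicate block, sample quality weights, gene length offsets and the fit without Vivo replicate 3. Insig1, an SREBP target that retains the Scap complex in the endoplasmic reticulum, was at 117, 136 and 112 CPM in Vivo, 161, 112 and 107 CPM in Vitro and 202, 168 and 185 CPM in Con. Both Vivo and Vitro lay below Con in every library, with a log2 fold change of -0.60 ± 0.17, adjusted p = 0.0562 in Vivo and a log2 fold change of -0.55 ± 0.17, adjusted p = 0.282 in Vitro. In Vivo against Con, DESeq2, sample quality weights, gene length offsets and the fit without Vitro replicate 1 called Insig1. In Vitro against Con only sample quality weights did.

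Srebf1, whose products drive fatty acid synthesis and which LXRs also induce, showed the same pattern. It was at 39.1, 48.3 and 41.9 CPM in Vivo, 42.8, 40.7 and 37.7 CPM in Vitro and 68.2, 53.1 and 59.96 CPM in Con, with both later groups below the starting cells. The differences from Con were a log2 fold change of -0.49 ± 0.14, adjusted p = 0.0549 in Vivo and a log2 fold change of -0.58 ± 0.14, adjusted p = 0.198 in Vitro. DESeq2 (adjusted p = 0.0187) and sample quality weights (adjusted p = 0.00536) called Srebf1 in Vitro against Con. Both also called it in Vivo against Con, as did the fit without Vivo replicate 3. Scap, the escort of SREBP, averaged 72.4 ± 10.3 CPM in Vivo, 63.3 ± 2.85 in Vitro and 70.3 ± 9.87 in Con, and Insig2, the sterol sensor partner that is not an SREBP target, averaged 15.6 ± 4.90, 19.9 ± 3.50 and 21.3 ± 2.80 CPM in the same groups (SD, n = 3 each). Stard4, a soluble carrier that moves cholesterol between membranes, averaged 13.7 ± 1.62 CPM in Vivo, 11.2 ± 1.59 in Vitro and 13.2 ± 0.568 in Con (SD, n = 3 each). Vivo overlapped the cultured groups for Scap and Stard4, while for Insig2 it overlapped Vitro and lay just below Con.

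All 5 LXR and efflux genes had a higher mean in Vivo than in Vitro, and 2 of them passed. Nr1h3, which encodes LXR alpha, was at 9.02, 9.04 and 12.1 CPM in Vivo, 6.76, 5.67 and 3.72 CPM in Vitro and 7.85, 8.21 and 6.78 CPM in Con. All Vivo values lay above all cultured values. Nr1h3 rose by 0.90 ± 0.24 on the log2 scale against Vitro (adjusted p = 0.0432), and its call was lost in 10 of 16 alternatives, without Vivo replicate 3 among them (adjusted p up to 0.132). In the GRCr8 annotation it overlaps Acp2, a lysosomal phosphatase gene, by 1400 bases, and Acp2 was at 73.2, 69.1 and 114.6 CPM in Vivo, 84.1, 75.8 and 84.8 CPM in Vitro, and 89.8, 79.9 and 94.5 CPM in Con. The strand setting of the counting is not given, so reads of this pair may not be fully separated.

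Abca1, the exporter that loads cholesterol onto lipid-poor apolipoprotein, was at 56.1, 114 and 37.9 CPM in Vivo, 32.3, 27.7 and 20.1 CPM in Vitro and 39.0, 43.3 and 54.97 CPM in Con. The Vivo values spread widely, with replicate 2 far above the rest and replicate 3 below the lowest Con value. Abca1 rose by 1.38 ± 0.36 on the log2 scale against Vitro (adjusted p = 0.0378), a call lost in 9 of 16 alternatives (adjusted p up to 0.138). Against Con the Vivo libraries overlapped, while all Vitro values lay below all Con values. Mylip, the ubiquitin ligase that removes lipoprotein receptors, was at 8.48, 10.7 and 10.6 CPM in Vivo, 6.12, 5.13 and 6.38 CPM in Vitro and 10.1, 5.94 and 7.88 CPM in Con, above every Vitro library but overlapping Con (a log2 fold change of 0.75 ± 0.23, adjusted p = 0.0627 against Vitro).

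Abcg1, which exports cholesterol to mature lipoprotein particles, was the lowest member and close to the count floor in culture, at 1.09, 2.40 and 1.49 CPM in Vivo, 0.524, 0.648 and 1.17 CPM in Vitro and 0.910, 0.170 and 1.16 CPM in Con. Nr1h2, which encodes the widely expressed LXR beta, was at 54.2, 55.9 and 77.8 CPM in Vivo, 50.8, 53.8 and 50.8 CPM in Vitro and 60.1, 57.4 and 56.1 CPM in Con. Its Vivo values exceeded all Vitro values by little in replicates 1 and 2, and it passed no test. Summed over the 5 genes, transcripts took 128.9, 192 and 139.9 CPM in Vivo, 96.5, 92.9 and 82.2 CPM in Vitro, and 118, 115 and 127 CPM in Con. Most of each sum was Abca1 and Nr1h2.

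Among 5 further LXR-induced genes tested, 1 rose in Vivo against Con (20%), where 5.17% of all tested genes rose. Against Vitro 3 rose (60%), where 5.38% of all tested genes rose. Another of the 5 went the other way against Vitro, with a log2 fold change of -1.27 and an unadjusted p under 0.05. It was at 0.38 to 0.86 CPM in Vivo and did not pass. Apoe, the apolipoprotein that accepts exported cholesterol and that macrophages and stromal cells secrete, was at 138.9, 92.0 and 219 CPM in Vivo, 4.31, 2.00 and 5.31 CPM in Vitro, and 30.6, 8.60 and 31.2 CPM in Con. It rose by 2.68 ± 0.51 on the log2 scale against Con (adjusted p = 0.0135) and by 5.27 ± 0.59 against Vitro (adjusted p = 6.8e-04), under all 16 alternatives. Smpdl3a, an LXR-induced phosphodiesterase in macrophages, was at 12.1, 18.8 and 19.9 CPM in Vivo, 6.70, 8.21 and 7.33 CPM in Vitro, and 11.3, 16.5 and 14.95 CPM in Con. It rose by 1.19 ± 0.23 on the log2 scale against Vitro (adjusted p = 0.0104), also under all 16. Pltp, which transfers phospholipid between lipoproteins, was at 11.9, 9.21 and 25.2 CPM in Vivo, 6.76, 3.89 and 4.52 CPM in Vitro, and 13.5, 6.28 and 10.4 CPM in Con. It rose by 1.61 ± 0.42 on the log2 scale against Vitro (adjusted p = 0.0365), a call lost in 6 of 16 alternatives, without Vivo replicate 3 among them. In Vitro against Con, edgeR called none of these 5 genes, and 3 were lower at an unadjusted p under 0.05, against 5.28% of all tested genes. DESeq2 called 2 of the 5 lower there, and 2.22% of all genes it tested in either direction.

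Ch25h, the cholesterol 25-hydroxylase, had the widest difference of the 33 genes in both Vivo comparisons. It was at 5.49, 1.20 and 3.83 CPM in Vivo, 36.9, 20.4 and 24.4 CPM in Vitro and 48.6, 39.2 and 60.6 CPM in Con. Vitro lay below Con in every library, and Vivo far below both. Ch25h fell by 3.82 ± 0.46 on the log2 scale against Con (14.1-fold lower, adjusted p = 0.0017) and fell by 2.96 ± 0.45 against Vitro (7.76-fold lower, adjusted p = 0.00308), and over the 16 alternatives of both comparisons the log2 fold change nearest to 0 was -2.55. Soat1, which esterifies cholesterol for storage in droplets, was at 112, 109.9 and 53.5 CPM in Vivo, 75.1, 89.5 and 100.7 CPM in Vitro and 72.03, 87.3 and 67.3 CPM in Con. Vivo replicates 1 and 2 lay above all cultured libraries and replicate 3 below them, and Soat1 passed against Con without Vivo replicate 3, alone among the fits that left out a library.

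Levels per length, the authors' FPKM values, place the genes on a common scale. In Con the most abundant were Msmo1 at 78.99 ± 15.9 FPKM, Hmgcs1 at 66.6 ± 5.38, Fdps at 63.1 ± 2.73 and Cyp51 at 62.9 ± 4.63 (SD, n = 3), followed by Insig1 at 58.2 ± 4.81. Neighbours in this order lay within their spread of each other. The lowest were Abcg1 at 0.139 ± 0.0903 FPKM and Mylip at 1.95 ± 0.555. In Vivo the levels were 50.3 ± 3.35 FPKM for Msmo1, 44.8 ± 12 for Hmgcs1, 47.6 ± 17.6 for Fdps and 39.1 ± 3.86 for Cyp51 (SD, n = 3), so the same genes led. Summed over all genes, FPKM was 499152 in Vivo replicate 3, against 365133 to 389381 in the other libraries. FPKM levels are therefore not strictly comparable between groups. Ch25h was near the bottom of the order in Vivo and in its upper part in Con, with 2.67 ± 1.57 FPKM in Vivo, 20.9 ± 6.10 in Vitro and 36.1 ± 7.16 in Con (SD, n = 3 each). Of the C14 reductases, Lbr stood at 5.82 ± 1.65 FPKM and Tm7sf2 at 3.96 ± 0.192 in Con (SD, n = 3).

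**Figure D4:**
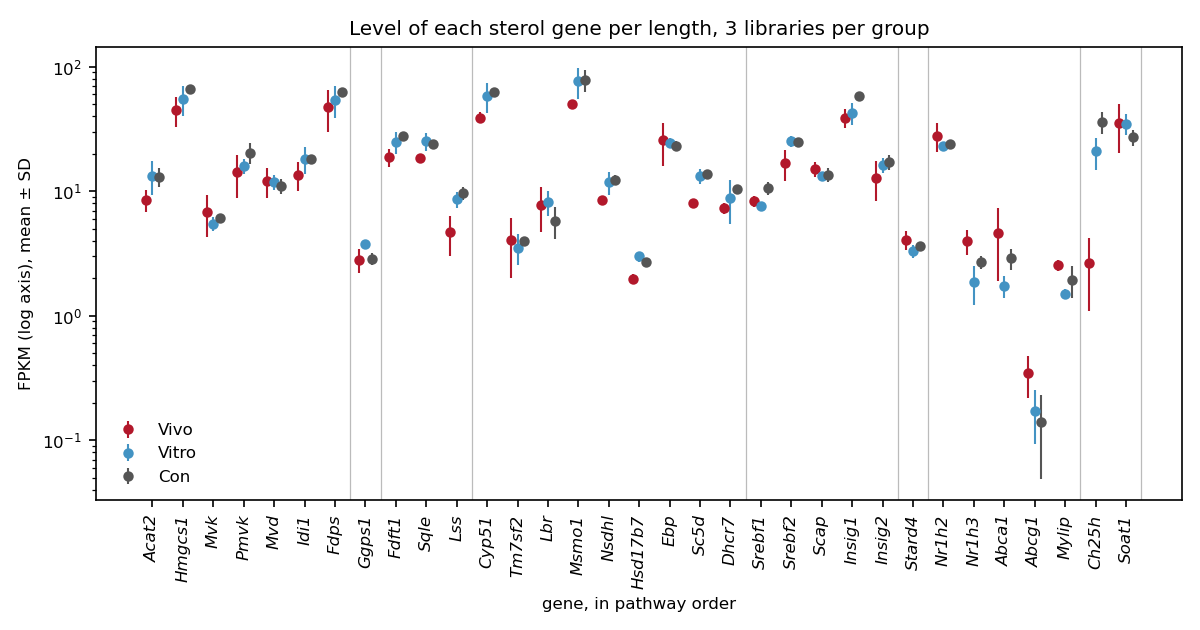
FPKM of each of the 33 genes on a log axis, as mean ± SD of 3 libraries, for Vivo, Vitro and Con, with genes in pathway order. Levels span from below 1 FPKM for Abcg1 to 79.0 FPKM for Msmo1 in Con, and Ch25h shows the widest gap between groups. The FPKM sum over all genes was higher in Vivo replicate 3 than in the other libraries.

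Further genes of sterol and fatty acid metabolism were listed beside the 33. Of 13 tested targets of SREBP-1 in fatty acid synthesis, 1 fell in Vivo against Con (7.69%), where 4.56% of all tested genes fell. Against Vitro 1 fell (7.69%), where 5.52% of all tested genes fell. The medians of the 13 were -0.33 and -0.32. Fads2, the delta-6 desaturase, fell by 1.33 ± 0.30 on the log2 scale against Con (adjusted p = 0.0246), but not when Con replicate 1 or 3 or Vivo replicate 1 or 2 was left out (adjusted p up to 0.0917). Me1, the malic enzyme that supplies NADPH, fell by 0.41 ± 0.11 against Vitro (adjusted p = 0.0442) and kept its call in 5 of 16 alternatives. Of 18 further genes of sterol synthesis, uptake and turnover, none passed in Vivo against Con with edgeR (2 higher and 3 lower at an unadjusted p under 0.05, 1 higher and 1 lower with DESeq2). At that unadjusted level 14.9% of all tested genes were higher and 12.5% lower, and DESeq2 called 15.2% of the genes it tested. Of this list Scarb1, the HDL receptor, fell by 0.81 ± 0.20 on the log2 scale against Vitro (adjusted p = 0.0329) and kept its call in 9 of 16 alternatives.

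Other properties of the libraries moved with the groups. The defining macrophage and leukocyte genes Ptprc, Cd163, Adgre1 and Tyrobp were at or near 0 in all libraries. None of the 3 testable genes of this list passed, and all 3 were above 0 in both Vivo comparisons. Among them Csf1r was at 3.75, 3.92 and 5.08 CPM in Vivo, above all cultured libraries. Its log2 fold change against Con was 1.39 ± 0.39 (adjusted p = 0.0529). Cd68 lay above all Con libraries and overlapped Vitro. The 10 genes of the list summed, mostly through Cd14, to 27.4 to 32.8 CPM in Vivo, 22.2 to 27.6 CPM in Vitro and 21.8 to 25.2 CPM in Con. The 7 endothelial genes summed to 22.2 to 28.6 CPM in Vivo, 6.06 to 10.6 CPM in Vitro and 6.11 to 9.44 CPM in Con, carried by Kdr, a VEGF receptor, with Cldn5 at 0. Of these genes 2 could be tested and Kdr rose in both Vivo comparisons. The 5 mesothelial genes summed to 102 to 144 CPM in Vivo, 25.1 to 29.3 CPM in Vitro and 23.5 to 29.5 CPM in Con, carried by Msln and Wt1, which rose in both Vivo comparisons, with Upk3b at 0 in Vivo, and Lrrn4 fell against Vitro. The 7 adipocyte genes stayed under 2 CPM in sum in every library, with Retn at 0. The 9 stromal genes were abundant throughout, at 49740 to 50640 CPM in Vivo, 35640 to 55660 CPM in Vitro and 53350 to 70340 CPM in Con. In Vivo 2 of the 9 rose against Vitro (22.2%), where 5.38% of all tested genes rose. Reads were aligned to the rat genome, so these sums may count transcripts of mouse host cells only in part. The part of the other cell types in the sterol results was not tested.

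Cell cycle transcripts also differed between libraries. The 10 genes of that list summed to 1518, 1277 and 1312 CPM in Vivo, 761, 1297 and 1425 CPM in Vitro, and 495, 901 and 601 CPM in Con. Of these genes 6 rose in Vivo against Con, where 5.17% of all tested genes rose. None passed against Vitro, where 10.9% of all tested genes were called. Vitro replicate 1, the library with the most synthesis transcripts, had the lowest cell cycle sum of its group, as Con replicate 1 did in Con. The 8 immediate early genes, which respond to handling and dissociation, summed to 1425 to 2689 CPM in Vivo, 437 to 454 CPM in Vitro and 576 to 871 CPM in Con. In Vivo 6 of the 8 rose against Con and 7 against Vitro, where 5.17% and 5.38% of all tested genes rose. The part of either in the sterol results was not tested.

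**Figure D5:**
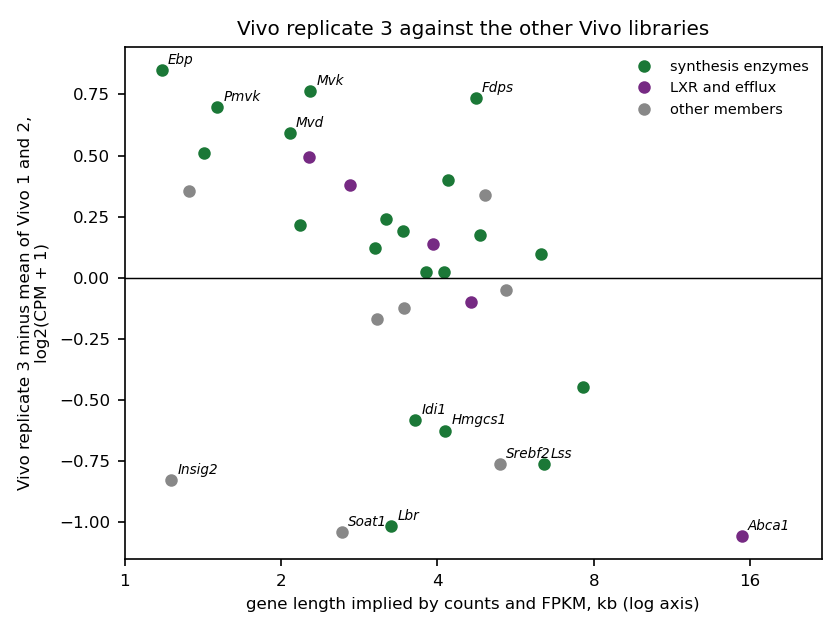
Difference of Vivo replicate 3 from the mean of Vivo replicates 1 and 2 on the log2(CPM + 1) scale, against gene length implied by counts and FPKM (kb, log axis), for the 33 sterol genes. The long genes Abca1, Lss and Srebf2 lie below 0 and the short genes Ebp, Mvk and Pmvk above it, while the short Insig2 lies below 0 and the longer Fdps above it.

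The length trend of Vivo replicate 3 ran through the sterol genes too, with a Spearman's rho of -0.445 over the 33 and -0.573 over the 20 synthesis genes, given as a description. Relative to the other Vivo libraries, replicate 3 was higher for Ebp (0.85), Mvk (0.76), Fdps (0.74), Pmvk (0.70) and Mvd (0.59), as differences of log2(CPM + 1). It was lower for Abca1 (-1.06), Soat1 (-1.04), Lbr (-1.02), Insig2 (-0.83), Lss (-0.76) and Srebf2 (-0.76). With gene length offsets, 8 of the 33 genes were called in Vivo against Con and 6 in Vivo against Vitro. In the same fits 13.1% and 13.5% of all tested genes were called. Sc5d, Lss and Ch25h were among those called in both, and Cyp51 against Con. The synthesis median with these offsets was -0.57 against Con and -0.42 against Vitro.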

How the data were processed

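RNA was sequenced as stranded poly(A) libraries, per the labels' protocols. Reads were aligned with HISAT2 to Rnor_6.0, per the submitters' processing notes. Which counter and strand setting made the table is not given in the sources used here. Overlapping genes are therefore uncertain. The deposited table gives a whole-number count per gene and library, not normalised, and an FPKM made by the authors, used here for levels per length and implied length.

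Counts were fitted in R 4.3.3 with edgeR 4.0.16 (filterByExpr, TMM, 1 quasi-likelihood fit of 3 groups over 9 libraries, 6 residual degrees of freedom, two-sided, Benjamini-Hochberg threshold 0.05). The scripts were tested on simulated data. The biological coefficient of variation was 0.231. No replicate pair agreed within sampling noise. Alternatives were DESeq2 1.42.0, limma 3.58.1 with sample quality weights, other size factors, no filter, a replicate block, gene length offsets, the 2 compared groups alone and each library left out. The 33 genes and all lists were chosen with earlier results of these data known, and for lists beside them at most 3 genes past the threshold are named per comparison. Floors and p-values cover counting and library spread only. Some sterol genes are not reported here.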

Additional observations from a re-analysis of the deposited data

How the results depend on the processing

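No member of the 33 with an unadjusted p under 0.05 in a comparison changed sign there under the 16 alternatives. Some members with small differences did, such as Mvk in Vivo against Con (-0.32 to 0.26) and Hmgcs1 in Vivo against Vitro (-0.51 to 0.061), as did the synthesis median in Vitro against Con. In Vivo against Con, the main 1203 genes and 4 sterol genes became 2046 and 13 with DESeq2, and 3458 and 20 with sample quality weights. Fitting the 2 compared groups alone gave 667 genes, and gene length offsets gave 1615 genes and 8 sterol genes. Leaving out 1 library gave 341 to 1706 genes and 2 to 12 sterol genes, with the lowest gene counts without Con replicate 3 (341) and Con replicate 1 (462) while the fits lacking Vitro replicate 2, Vivo replicate 1 or Vivo replicate 2 gave 779, 667 and 747 in turn. In Vivo against Vitro, the main 1348 genes and 6 sterol genes became 2077 genes with DESeq2, 2852 genes and 10 sterol genes with quality weights, and 861 genes and 2 sterol genes with the 2 groups alone. Leaving out 1 library gave 661 to 1660 genes (661 without Vitro replicate 2, 689 without Vitro replicate 3) and 2 to 6 sterol genes. In Vitro against Con, the main 4 genes and 0 sterol genes became 298 and 1 with DESeq2, 2690 and 9 with quality weights, and 0 genes with the 2 groups alone. Leaving out 1 library gave 0 to 54 genes (54 without Con replicate 2), no sterol gene, and a synthesis median of -0.35 to 0.005. The causes were not tested.

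Same-numbered libraries of different groups correlated at -0.015 to 0.36 in their deviations from the group means, and unlike-numbered ones at -0.34 to 0.099. Between Con and Vitro the same-numbered pairs were at 0.36, 0.32 and 0.092, so a pairing of these groups is possible. The labels do not give one, and the main fit holds no replicate block. With a replicate block, 5 sterol genes were called in Vivo against Con, with Srebf2 gained, where 9.73% of all tested genes were called. Under the block, 3 sterol genes were called in Vivo against Vitro, where 10.1% of all tested genes were called. Hsd17b7 (adjusted p = 0.069), Nr1h3 (0.0632) and Abca1 (0.0523) were not among them. In Vitro against Con the block called 7 genes (0.0566% of all tested). The number of synthesis genes below 0 ranged over the alternatives from 16 to 19 of 20 in Vivo against Con, 15 to 19 in Vivo against Vitro and 10 to 16 in Vitro against Con.

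With 3 libraries a group, 12 of the 20 synthesis genes were lower in Vivo than in Con at an unadjusted p under 0.05 and 3 passed the adjusted threshold. Abcg1 lay near the floor in cultured cells, and its log2 fold change in Vivo against Con, 1.15 ± 0.61, is imprecise.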

Other observations

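Genes that use the isoprenoids branching from farnesyl diphosphate, namely the protein prenyltransferase, ubiquinone and dolichol genes, were listed beside the sterol genes. Of 10 such genes tested, edgeR called none in any comparison. At an unadjusted p under 0.05, 1, 1 and 0 were higher in Vivo against Con, Vivo against Vitro and Vitro against Con. At that level 14.9%, 14.6% and 6.08% of all tested genes were higher, in the same order. DESeq2 called 1 of the 10 higher in Vivo against Con and none in the other 2 comparisons. It called 15.2%, 15.1% and 2.22% of all genes it tested. The median log2 fold changes of the 10 genes were 0.034, 0.14 and -0.13 in the same order.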
